A study of Mus musculus with 25 samples.

Results

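Collagen genes encode the chains of the collagens, the most abundant proteins of the extracellular matrix. They were taken here as the autosomal protein-coding genes whose symbol is Col, a number, a, and a number, which gave 42 of 20665 autosomal protein-coding genes of the mouse build mm10. Of these 42, 11 form fibrillar collagens, 7 form network collagens and 24 form other collagens. The X-linked genes Col4a5 and Col4a6 were left out, since no peak of any list lies on X or Y. H3K27me3, the histone mark of Polycomb repressive complex 2 (PRC2), was measured in a study of transcriptional memory after PRC2 is lost or blocked and then restored. Neural progenitor cells (NPC) derived from wild-type embryonic stem cells gave 6 CUT&RUN libraries, 2 each without treatment, with UNC1999 at 2 uM plus A395 at 4 uM, both inhibitors of PRC2, and after washout of the compounds. Fibroblast lines A and B, mouse embryonic fibroblasts immortalized with c-myc, gave 12 ChIP-seq libraries, 2 each as wild type, as Ezh2 -/- and with Ezh2 restored. Restoration used the retroviral construct pMSCV-Ezh2 in line A and an endogenous rescue in line B, whose Ezh2 -/- state is labelled reversible. Each MEF system is 1 cell line, and both carry c-myc in every condition.

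The values below come from 3 peak lists, 1 for each cell system, and not from single libraries. A list gives the position of each peak and no height, so the depth is unknown and the treatments, Ezh2 loss and rescue were not compared. Each gene was described by its window, the RefSeq gene record and 5 kb on each side, and by the percent of that window covered by peaks. Values given in a row of 3 with no list named are in the order line A, line B, NPC. There was no replicate for any list, so a difference between lists has no replicate check and no test. The NPC list comes from another assay than the fibroblast lists, so assay and cell type cannot be told apart. Bulk chromatin was profiled, so a mark in some cells and a weak mark in every cell cannot be told apart either. Line A held 86235 peaks, line B 81972 and NPC 44807. Among 10 marker genes of neural progenitors, peaks lay at 8 (line A), 9 (line B) and 3 (NPC). Of 10 fibroblast genes, 3 of them collagen genes, peaks lay at 1 (line A), 0 (line B) and 2 (NPC), the last being Pdgfrb, 57.9% covered, and Fn1, 0.905%. None of 5 autosomal housekeeping genes had a peak in any list. A repressive mark does not measure expression, so these values check the labels only in part.

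All collagens share a triple helix wound from 3 chains, each a repeat built on glycine. Fibrillar collagens of types I, III and V build the fibres that fibroblasts secrete, while types II and XI build those of cartilage. Network collagens form sheets, type IV in basement membranes and types VIII and X in hexagonal lattices. Other collagens sit on fibre surfaces, anchor or span cell membranes, or form beaded filaments. PRC2 places H3K27me3 over silent developmental genes, and in mammals its sites often lie at promoters rich in CG dinucleotides.

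The sequences around the transcription start are shown for 7 genes that stand for the patterns described below. Each runs over 300 bases, from 250 before the start to 50 after it, 5′ to 3′ on the transcribed strand, from RefSeq on GRCm38.p6, the assembly of mm10. CG dinucleotides are in capitals. Col4a1 (chr8:11312777-11313076, minus strand) and Col4a2 (chr8:11312555-11312854, plus strand) are a divergent pair whose starts lie 21 bp apart and whose windows share 78 bases, and both were marked in the fibroblasts and not in NPC.
Col4a1: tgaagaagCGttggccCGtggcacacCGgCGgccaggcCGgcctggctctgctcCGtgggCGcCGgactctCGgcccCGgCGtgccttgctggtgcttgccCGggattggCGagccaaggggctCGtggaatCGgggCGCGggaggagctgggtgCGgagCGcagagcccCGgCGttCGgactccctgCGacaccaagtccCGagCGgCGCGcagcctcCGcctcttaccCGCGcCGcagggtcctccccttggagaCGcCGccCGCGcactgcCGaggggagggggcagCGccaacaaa
Col4a2: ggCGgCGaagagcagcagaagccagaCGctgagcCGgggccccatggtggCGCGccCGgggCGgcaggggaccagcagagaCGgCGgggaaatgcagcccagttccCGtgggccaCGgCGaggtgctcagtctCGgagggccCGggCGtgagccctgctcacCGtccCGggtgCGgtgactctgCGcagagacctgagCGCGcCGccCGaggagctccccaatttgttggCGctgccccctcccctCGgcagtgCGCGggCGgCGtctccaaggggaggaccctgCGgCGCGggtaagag
Col13a1 (chr10:61979059-61979358, minus strand) had its start covered in all 3 lists.
Col13a1: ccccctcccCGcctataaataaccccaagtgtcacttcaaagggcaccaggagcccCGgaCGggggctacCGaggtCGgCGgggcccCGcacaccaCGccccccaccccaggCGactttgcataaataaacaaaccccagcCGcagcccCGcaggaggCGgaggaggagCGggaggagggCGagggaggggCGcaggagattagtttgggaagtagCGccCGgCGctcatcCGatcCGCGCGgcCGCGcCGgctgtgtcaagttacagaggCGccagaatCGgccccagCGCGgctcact
Col5a1 (chr2:27886175-27886474, plus strand) and Col6a3 (chr1:90843922-90844221, minus strand) had a peak over the start in NPC alone.
Col5a1: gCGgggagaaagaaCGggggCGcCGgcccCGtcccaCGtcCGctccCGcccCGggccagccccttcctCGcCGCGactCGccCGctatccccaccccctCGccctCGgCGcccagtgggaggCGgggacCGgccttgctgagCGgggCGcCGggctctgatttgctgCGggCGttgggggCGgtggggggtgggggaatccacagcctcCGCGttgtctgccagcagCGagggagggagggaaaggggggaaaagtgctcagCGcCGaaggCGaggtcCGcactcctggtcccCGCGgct
Col6a3: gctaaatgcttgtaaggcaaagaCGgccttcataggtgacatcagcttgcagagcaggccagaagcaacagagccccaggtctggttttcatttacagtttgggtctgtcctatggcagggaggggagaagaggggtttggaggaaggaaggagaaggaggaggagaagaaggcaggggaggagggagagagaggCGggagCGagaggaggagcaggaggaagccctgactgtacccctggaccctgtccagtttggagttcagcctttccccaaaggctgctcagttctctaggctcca
Col1a2 (chr6:4505368-4505667, plus strand) and Col3a1 (chr1:45311288-45311587, plus strand) had no peak in their windows in any list.
Col1a2: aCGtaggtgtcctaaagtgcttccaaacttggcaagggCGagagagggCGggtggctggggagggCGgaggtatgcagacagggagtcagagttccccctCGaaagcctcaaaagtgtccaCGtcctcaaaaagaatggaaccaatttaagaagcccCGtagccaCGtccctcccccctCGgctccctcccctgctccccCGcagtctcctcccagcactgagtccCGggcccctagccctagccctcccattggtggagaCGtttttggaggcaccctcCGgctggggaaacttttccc
Col3a1: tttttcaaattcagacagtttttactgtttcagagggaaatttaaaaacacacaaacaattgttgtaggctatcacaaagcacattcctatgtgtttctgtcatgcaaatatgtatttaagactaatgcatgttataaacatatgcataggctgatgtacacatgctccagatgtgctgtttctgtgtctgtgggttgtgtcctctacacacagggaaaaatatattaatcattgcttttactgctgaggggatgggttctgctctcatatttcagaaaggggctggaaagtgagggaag
These windows held 37 CG dinucleotides at Col4a1, 33 at Col4a2, 29 at Col13a1, 34 at Col5a1, 3 at Col6a3, 13 at Col1a2 and 0 at Col3a1. Of the starts shown, the 2 marked in NPC alone lay near opposite ends of this range. Other collagen starts with a peak within 2 kb in NPC alone held 9 (Col11a1), 12 (Col8a1) and 14 (Col6a6) CG dinucleotides.

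H3K27me3 peaks lay near more collagen genes than the share over all genes, in each of the 3 lists. At least 1 bp of the window was covered at 27 of 42 collagen genes in line A (64.3%, against 40.2% of all genes), at 29 in line B (69%, against 40.9%) and at 26 in NPC (61.9%, against 31.9%). Collagen genes are long, with a median record of 110 kb against 17.5 kb over all genes, and long windows meet more peaks. Among the 24 collagen genes with records over 100 kb, peaks lay at 17 (line A), 20 (line B) and 20 (NPC), where 53.2%, 57.1% and 48.6% of all genes of that length did. The excess was not seen in every length class. Of 9 collagen genes of 30 to 100 kb, 44.4%, 44.4% and 55.6% had a peak, against 43.5%, 43.3% and 32.1% of all such genes. Of 8 collagen genes of 10 to 30 kb, 75%, 62.5% and 12.5% did, against 40.6%, 41.1% and 30.7%. The median share of the window covered was low in each list, at 3.22% (line A), 3.96% (line B) and 1.87% (NPC), against 0% over all genes. Over the summed windows, collagen genes were covered to 19.8% (line A), 15.1% (line B) and 12.8% (NPC), against 10.9%, 9.28% and 5.38% over all genes.

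**Figure D1:**
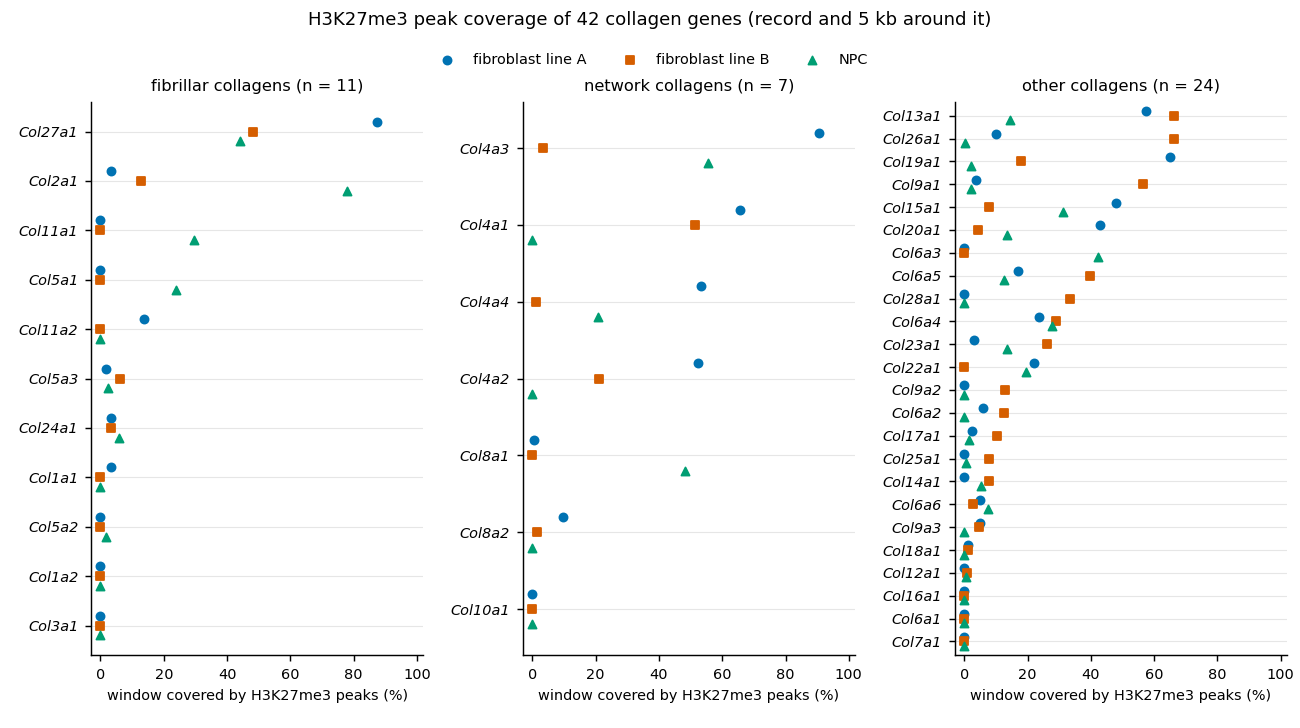
Percent of the window (gene record and 5 kb on each side) covered by H3K27me3 peaks for each of the 42 collagen genes, 1 point for each peak list, with genes ordered within a class by their highest value. Col4a3 reaches 90.6% and Col27a1 87.4% in line A and Col2a1 78.0% in NPC, while Col1a2, Col3a1, Col10a1, Col16a1, Col6a1 and Col7a1 lie at 0 in all 3 lists.

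Broad coverage was a property of few collagen genes. At least 50% of the window was covered at 7 genes in line A (16.7%, against 9.98% of all genes), at 4 in line B (9.52%, against 9.71%) and at 2 in NPC (4.76%, against 3.91%). Without regard to length, the line A share was above that of all genes and the other 2 were close to it. The line A genes were Col4a1, Col4a2, Col4a3, Col4a4, Col13a1, Col19a1 and Col27a1. Those of line B were Col4a1, Col9a1, Col13a1 and Col26a1, and those of NPC were Col2a1 and Col4a3. Except Col9a1 and Col2a1 these have records over 100 kb, a length at which 7.91% (line A), 6.44% (line B) and 1.6% (NPC) of all genes were covered this far. Of the 24 collagen genes of that length, 7 were so covered in the line A list (29.2%), 3 in the line B list (12.5%) and 1 in the NPC list (4.17%).

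By class, the counts and medians were as follows, with no test between classes. A peak lay in the windows of 6 of 11 fibrillar, 6 of 7 network and 15 of 24 other collagen genes for line A. The same counts were 4, 5 and 20 for line B, and 7, 3 and 16 for NPC. Over all genes the shares were 40.2%, 40.9% and 31.9%, and counts such as 4 of 11 fibrillar genes in line B and 3 of 7 network genes in NPC lie near them. Median coverage of the network genes was 52.3% (line A), 1.36% (line B) and 0% (NPC). Over their summed windows coverage was 49.1%, 13.5% and 23.6%, since single genes such as Col4a1 in line B and Col4a3 and Col8a1 in NPC were broadly covered beside others with little or none. Fibrillar genes had medians of 1.63%, 0% and 2.48%, and the remaining collagens 3.38%, 7.82% and 1.75%. Of all genes with records over 100 kb, 99.6% had a lower line A value than Col4a3 and 97.0% a lower line B value than Col13a1. For NPC, 98.7% had a lower value than Col4a3. These were picked as the highest collagen genes of that length, so a high rank is in part set by the choice.

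**Figure D2:**
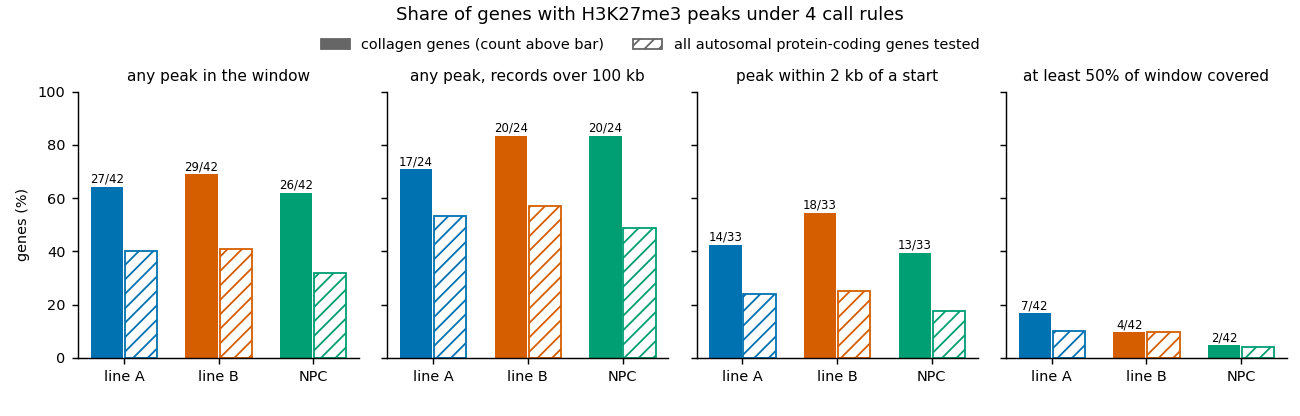
Share of collagen genes (filled bars, with the count above each bar) and of all autosomal protein-coding genes tested (hatched bars) that met 4 call rules in each peak list. The filled bars stand above the hatched ones for any peak in the window, while for 50% of the window covered they lie at 9.52% and 9.71% in line B and at 4.76% and 3.91% in NPC.

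The fibrillar collagens of connective tissue were free of peaks or nearly so in the fibroblasts. Col1a1 and Col1a2 encode the 2 chains of type I collagen, and Col3a1 encodes type III. Col1a2 (gene 12843, chr6:4505618-4541543) and Col3a1 (gene 12825, chr1:45311538-45349706) had 0% of the window covered in each list. Their starts lay far from any peak, with the nearest at 108 kb in line A, 73.5 kb in line B and 57.3 kb in NPC for Col1a2. For Col3a1 these distances were 377, 476 and 129 kb. Col1a1 (gene 12842, chr11:94936224-94953042) had 3.33% of the window covered in line A, as 1 peak of 0.893 kb, and 0% in the other lists. Col1a2 and Col3a1 thus lacked peaks in NPC as well as in the fibroblasts.

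Of type V collagen, which regulates the width of type I fibres, and type XI, Col5a1 and Col11a1 were covered in NPC and free of peaks in the fibroblasts. Col5a1 (gene 12831, chr2:27886381-28039510) was covered over 0% (line A), 0% (line B) and 23.9% (NPC). The longest NPC region, with peaks less than 3 kb apart joined, spanned 36.6 kb (chr2:27924812-27961426) inside the record, and 2150 bp within 2 kb of the start were covered as well. Its partner Col5a2, which lies next to Col3a1 on chromosome 1, had 1.66% covered in NPC and 0% in both fibroblast lists. Col11a1 (gene 12814, chr3:114030479-114220756), a type XI chain of cartilage, was covered over 0%, 0% and 29.7%. In NPC all of the 4001 bp within 2 kb of its start was covered, while the nearest line A peak lay 377 kb away. In contrast Col11a2 (chr17:34038919-34066684), the second type XI chain, was covered over 13.8% in line A and 0% in the others. Of the record itself 10.3% was covered, and the nearest peak lay 2.12 kb from its start.

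Col2a1 (gene 12824, chr15:97975602-98004724), the type II collagen of cartilage, was the collagen gene most covered in NPC. Coverage was 3.23% (line A), 12.7% (line B) and 78.0% (NPC). In NPC a single peak of 32.0 kb ran over most of the record and beyond its higher-coordinate end. The line B peak of 7.93 kb lay next to that end and outside the record, of which 0% was covered, and the 4.96 kb of it inside the window were all covered in NPC too. Among genes with records of 10 to 30 kb, 98.9% had a lower share covered in NPC than Col2a1.

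Col27a1 (gene 373864, chr4:63214009-63334991), a fibrillar collagen of cartilage and developing tissues, was the fibrillar gene most covered in the fibroblasts. Peaks covered 87.4% (line A), 48.2% (line B) and 44.0% (NPC) of the window, and its start was covered in full in each list. Of the 63.1 kb covered in line B, 94.9% was covered in line A too, and of the 57.6 kb covered in NPC, 87.0% was. Line A covered 87.4% of the window, so an NPC share near that value shows no common placement. A length of 35.2 kb was covered in all 3 lists. The line A region reached 144 kb (chr4:63145009-63288714) and took in the neighbours Ambp and Kif12. Col5a3 and Col24a1, the remaining fibrillar genes, were covered over at most 3.22% (line A), 6.03% (line B) and 5.87% (NPC).

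**Figure D3:**
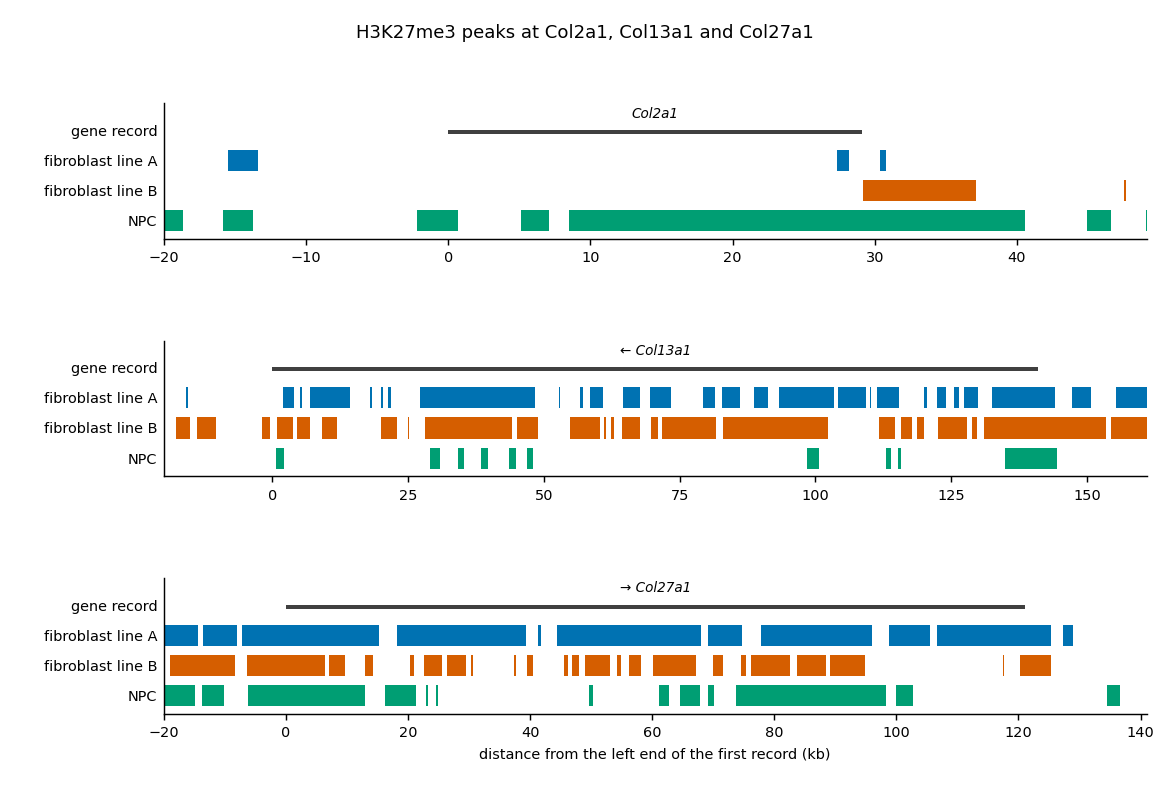
Peaks of each list along Col2a1, Col13a1 and Col27a1, with the gene record as a dark bar and 20 kb shown on each side (the x axis gives kb from the left end of the record, and arrows give the strand where it is known). A single NPC peak runs along most of Col2a1, both fibroblast lists cover Col13a1 more than NPC does, and Col27a1 is covered in all 3 lists.

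The network collagens were led by type IV, the main collagen of basement membranes, with different patterns at its 2 autosomal gene pairs. Col4a1 and Col4a2 encode the chains found in nearly all basement membranes. Col4a1 (gene 12826, chr8:11198423-11312889) was covered over 65.5% (line A), 51.4% (line B) and 0% (NPC). Col4a2 (gene 12827, chr8:11312805-11449287) was covered over 52.3%, 21.2% and 0%. Both starts, seen in the sequences above, were covered over all of the 4001 bp within 2 kb in lines A and B, and the nearest NPC peak was 167 kb away. Over the pair, 83.3% of the line B coverage was in line A as well, and 47.2% of the line A coverage was in line B. Line A covered 57.8% and line B 32.7% of the joined window of the pair.

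Col4a3 and Col4a4 encode chains of the specialised basement membranes of kidney, lung and inner ear. Their records overlap by 114 bp. Col4a3 (gene 12828, chr1:82586921-82722059) was covered over 90.6% (line A), 3.45% (line B) and 55.6% (NPC). Col4a4 (gene 12829, chr1:82448419-82587034) was covered over 53.3%, 1.22% and 20.8%. Here line A and NPC carried the mark and line B nearly lacked it, whereas at Col4a1 and Col4a2 NPC was the list without peaks. In line A 1 region of 171 kb (chr1:82552982-82723486) ran from Col4a4 through the whole of Col4a3. Of the NPC coverage over the pair 89.6% lay in line A coverage, which took up 70.7% of the joined window. At the Col4a4 start all of the 4001 bp within 2 kb was covered in line A and NPC, against 828 bp in line B.

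**Figure D4:**
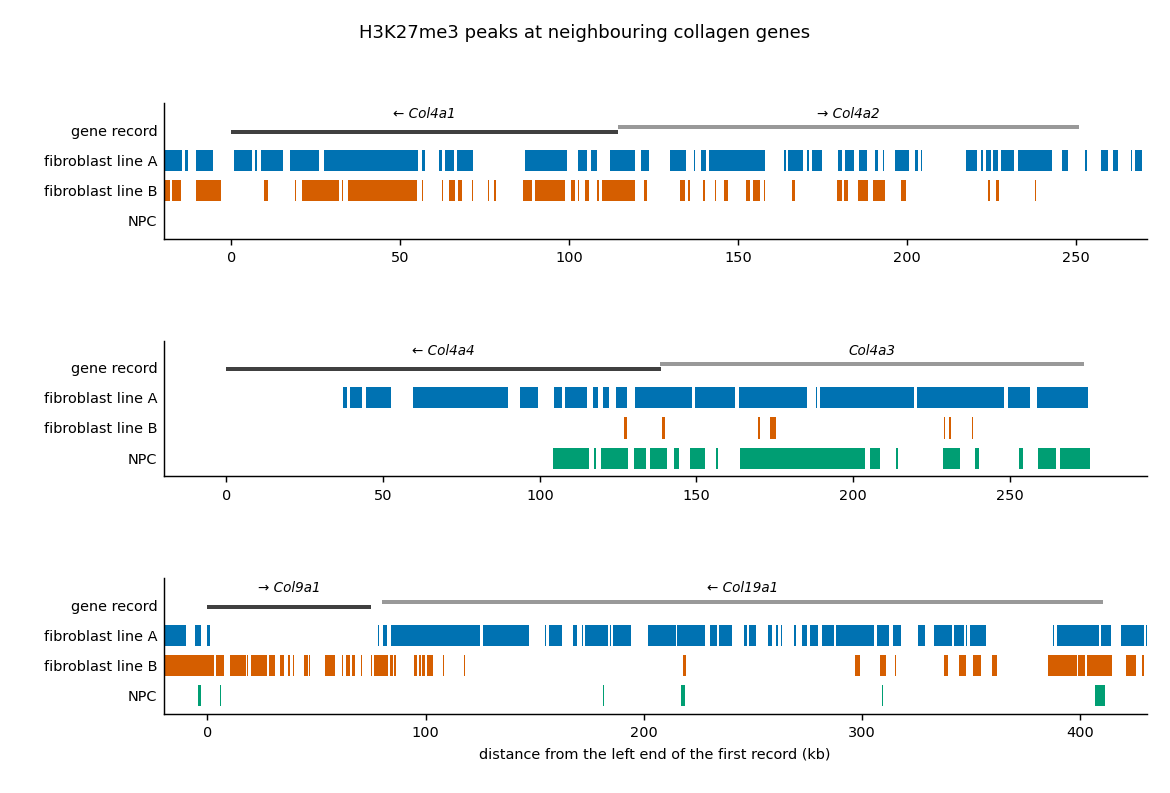
Peaks of each list at 3 pairs of neighbouring collagen genes, with gene records as dark and light bars, arrows for the strand where it is known and 20 kb shown on each side (the x axis gives kb from the left end of the first record). NPC has no peak at Col4a1 and Col4a2, line B has few at Col4a3 and Col4a4, and Col19a1 is covered in both fibroblast lists while Col9a1 is covered mainly in line B.

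The short-chain network collagens differed from type IV. Col8a1 (gene 12837, chr16:57624256-57754737), a type VIII chain of vessel walls and cornea, was covered over 0.56% (line A), 0% (line B) and 48.2% (NPC). Cut into 4 equal parts from the start on, its record was covered in NPC over 34.3%, 49.8%, 35.2% and 73.2%. Its partner Col8a2 had its highest value in line A instead, with 9.59% (line A), 1.36% (line B) and 0% (NPC). Col10a1, the type X collagen of hypertrophic cartilage and the shortest record at 7.11 kb, had no peak in any list.

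Among the other collagens, the transmembrane collagen Col13a1 was broadly covered in both fibroblast lines. Col13a1 (gene 12817, chr10:61838234-61979206), a collagen of neuromuscular junctions, was covered over 57.3% (line A), 66.4% (line B) and 14.3% (NPC). The lines shared 68.8 kb there, which was 79.5% of the line A and 68.6% of the line B coverage. These shares stand beside 66.4% of the window covered in line B and 57.3% in line A. NPC coverage was densest before the record, over 70.3% of the upstream 5 kb, against 21.5% of the first of 4 equal parts of the record. Col23a1 (chr11:51289679-51583925), a second transmembrane collagen, was covered over 3.12% (line A), 26.1% (line B) and 13.6% (NPC), and Col17a1, of the skin hemidesmosome, over 2.53%, 10.4% and 1.42%. Col25a1, the fourth of this group and a neuronal collagen, had 7.83% covered in line B, 0.471% in NPC and 0% in line A.

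Fibril-associated collagens attach to the surface of fibres, and several of their genes were marked in 1 fibroblast line far more than in the other. Col19a1 (gene 12823, chr1:24257683-24587922) was covered over 65.1% (line A), 18.1% (line B) and 2.16% (NPC). Within 2 kb of its start the lists were closer, with 3102 bp (line A), 4001 bp (line B) and 3463 bp (NPC) covered. Its neighbour Col9a1 (gene 12839, chr1:24177589-24252738), a chain of the cartilage collagen IX, was covered over 3.63% (line A), 56.6% (line B) and 2.09% (NPC). The records of this pair lie less than 5 kb apart. At Col19a1 line B covered 61.5 kb, of which 77.6% lay in line A coverage, beside the 65.1% of the window that line A covered. Line B also covered 48.2 kb at Col9a1, so it marked both genes. Line A covered 222 kb at Col19a1 and 3.09 kb at Col9a1. In line B a region of 103 kb (chr1:24114463-24217297) ran into Col9a1 from outside, and both annotated Col9a1 starts had a line B peak within 2 kb. Line A covered at most 1036 bp within 2 kb of a Col9a1 start, and NPC 0 bp. Col20a1 (chr2:180983323-181017545) was covered over 42.8% (line A), 4.47% (line B) and 13.4% (NPC). Its line A region continued over the acetylcholine receptor gene Chrna4. Col22a1 (chr15:71795795-72150979), a collagen of tissue junctions, was covered over 22.0% (line A), 0.055% (line B) and 19.5% (NPC). Of its NPC coverage 34.2% lay in line A coverage, beside the 22.0% of the window that line A covered. Col9a2 (chr4:121039566-121055325) had 12.8% covered in line B, around its start, and 0% in the other lists.

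Type VI collagen forms beaded filaments around most cells, and its genes are described here in 2 sets. Col6a1, Col6a2 and Col6a3 encode the classical chains. Col6a3 (gene 12835, chr1:90766860-90844001) was covered over 0% (line A), 0% (line B) and 42.1% (NPC), Col6a2 over 5.87%, 12.4% and 0%, and Col6a1 over 0% in each. The Col6a2 peaks lay in the 5 kb past its 3′ end and covered 0% of the record. Col6a4, Col6a5 and Col6a6, the tandem genes for the later-found chains, had peaks in all 3 lists. Col6a4 (chr9:105990318-106096828) was covered over 23.5%, 29.0% and 27.9%, Col6a5 (chr9:105856070-105962463) over 17.0%, 39.6% and 12.5%, and Col6a6 over 5.07%, 2.67% and 7.56%.

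The multiplexins, basement membrane collagens that are cut to release fragments such as endostatin, differed from each other. Col15a1 (gene 12819, chr4:47207655-47313167) was covered over 48.1% (line A), 7.78% (line B) and 31.1% (NPC), and its start was covered in full in each list. Col18a1 was covered over 1.3%, 1.2% and 0%. The last pair, in no subclass, had its highest value in line B. Col26a1 (gene 140709, chr5:136741759-136883376) was covered over 10.2% (line A), 66.4% (line B) and 0.268% (NPC), and Col28a1 (gene 213945, chr6:7997100-8193709) over 0%, 33.3% and 0%. The rest of this class, Col12a1, Col14a1, Col25a1, Col6a6, Col9a3, Col18a1, Col16a1, Col6a1 and Col7a1, had at most 5.07% (line A), 7.83% (line B) and 7.56% (NPC) covered, and the last 3 named had no peak.

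Set side by side, the lists differed from each other at named collagen genes in every direction. A peak lay in all 3 lists at 18 of 42 collagen genes (42.9%, against 19.5% of all genes), and in none at 6 (14.3%, against 44.8%). The shares over all genes given here are not matched for record length, and long windows meet more peaks. Both fibroblast lists and not NPC had a peak at Col4a1, Col4a2, Col8a2, Col6a2, Col9a3 and Col18a1, which is 6 genes or 14.3%, against 12.5% of all genes. Of the records of Col6a2 and Col9a3 0% was covered in both fibroblast lists, and of Col8a2 0% in line B. With a flank of 0 kb, 4 genes met this rule, Col26a1 then among them. NPC and neither fibroblast list had one at Col5a1, Col5a2, Col6a3 and Col11a1 (9.52%, against 5.97%). Col1a1 and Col11a2 had a peak in line A alone (4.76%, against 4.55%), Col9a2 and Col28a1 in line B alone (4.76%, against 6.28%), Col8a1 in line A and NPC (2.38%, against 3.74%), and Col12a1, Col14a1 and Col25a1 in line B and NPC (7.14%, against 2.71%). The last 5 of these shares rest on 1 to 4 genes each.

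A difference of at least 25 percentage points in coverage was used to name genes that separate the lists. NPC lay that far above both fibroblast lists at Col2a1, Col6a3, Col8a1 and Col11a1, which is 4 of 42 (9.52%, against 2.48% of all genes), with Col5a1 just under at 23.9 points. Both fibroblast lists lay that far above NPC at Col4a1 and Col13a1 (4.76%, against 7.53%). Line A lay that far above line B at Col4a2, Col4a3, Col4a4, Col15a1, Col19a1, Col20a1 and Col27a1 (16.7%, against 6.01%), and line B above line A at Col9a1, Col26a1 and Col28a1 (7.14%, against 5.06%). As a description over 42 genes, Spearman's rho of coverage was 0.546 between lines A and B, 0.302 between line A and NPC and 0.138 between line B and NPC. Over all 20665 genes it was 0.725, 0.511 and 0.446, and over the 2313 genes with records over 100 kb 0.658, 0.441 and 0.397. Genes with no peak in any list enter as ties, and they make up 14.3% of the collagen genes and 44.8% of all genes. Genes of a pair share peaks and windows, and both fibroblast lists come from 1 assay. With touching collagen windows joined into 39 loci, 31.2% of the line A coverage was covered in line B and 41.0% of the line B coverage in line A. Over the whole autosomes, which also hold peaks outside gene windows, these shares were 46.3% and 54.2%.

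**Figure D5:**
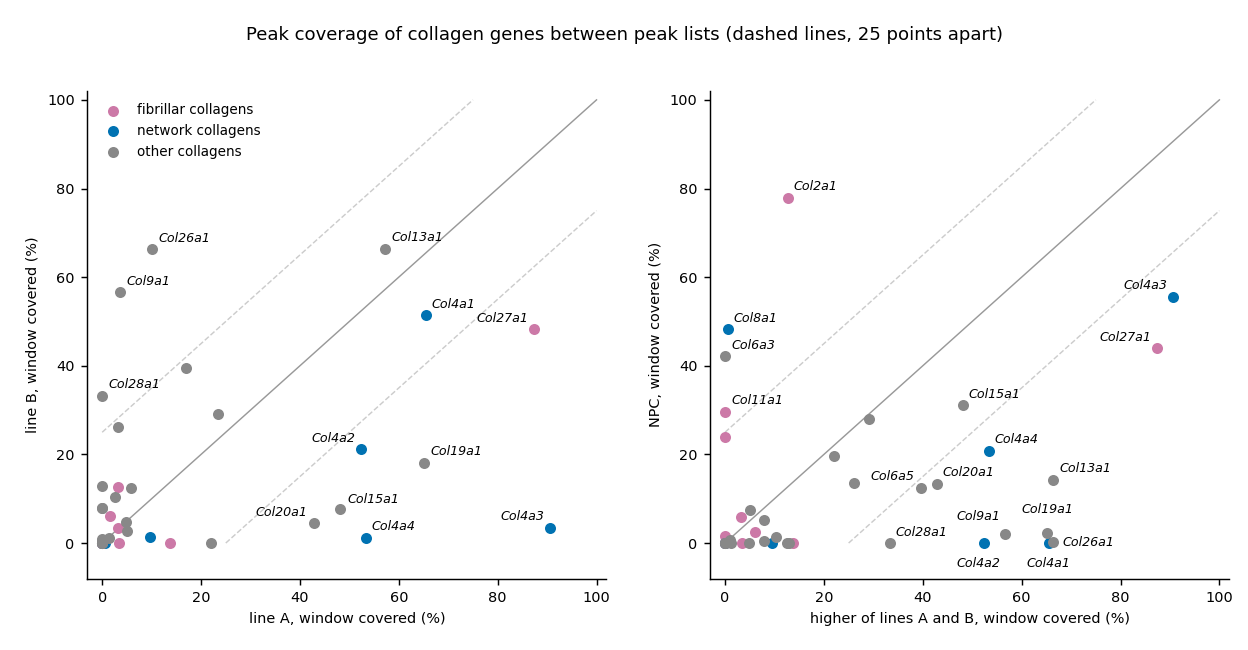
Percent of each collagen window covered in line B against line A (left), and in NPC against the higher of lines A and B (right), 1 point per gene, coloured by class, with the line of equality and dashed lines 25 points to each side. Col9a1, Col26a1 and Col28a1 lie above the upper dashed line on the left, and Col2a1, Col8a1, Col6a3 and Col11a1 lie above it on the right.

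Peaks reached the transcription start of many collagen genes. RefSeq starts were matched for 33 of the 42 genes, not for Col12a1, Col14a1, Col1a1, Col22a1, Col26a1, Col2a1, Col4a3, Col5a2 and Col9a3. A peak lay within 2 kb of a start at 14 of 33 genes in line A (42.4%, against 23.9% of all genes with a start), at 18 in line B (54.5%, against 25.1%) and at 13 in NPC (39.4%, against 17.5%). In long genes the mark was highest before the record: over 1772 genes of over 100 kb, mean coverage in the 5 kb upstream was 18.0% (line A), 19.9% (line B) and 14.9% (NPC), and in the last of 4 equal parts of the record 9.62%, 6.78% and 3.78%. Single collagen genes departed from this order. Col19a1 went from 51.4% of its first part to 85.1% of its last in line A, and Col5a1 had 84.2% of its second part covered in NPC against 3.97% of its first. Col25a1 and Col24a1 followed the general order in line B, with 97.6% and 84.2% of the upstream 5 kb covered and at most 10.4% of any part.

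The start sequences of the collagen genes were searched for 3 motifs, each on both strands. TATAAA, the core of the TATA box, was found in 5 of 36 collagen windows of 300 bases (13.9%, against 12.7% of 20085 autosomal windows), CCAAT in 12 (33.3%, against 38.1%) and GGGCGG, a GC box, in 21 (58.3%, against 47.0%). A match is a description of the letters and not a site. The median number of CG dinucleotides was 12 against 14 over all windows, and their ratio to the number given by base composition was 0.456 against 0.586. The 24 collagen windows with a peak within 2 kb in any list held a median of 13 CG dinucleotides and the other 12 held 9, while over all genes the medians were 9 with a peak and 16 without. The highest counts were 37 and 33 at Col4a1 and Col4a2, 34 at Col5a1 and 32 at Col8a2, all of which had a peak within 2 kb in at least 1 list. Windows with few CG dinucleotides, 0 at Col28a1 and 3 at Col6a3, had such a peak too. Col16a1 with 24 and Col5a3 with 20 had none in any list.

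Of 30 genes that modify, cut and cross-link collagen, 2 (line A), 2 (line B) and 1 (NPC) had at least 50% of the window covered, where 9.98%, 9.71% and 3.91% of all genes did. Any peak lay at 6 of the 30 in the line A list, at 13 in that of line B and at 9 in NPC, where 40.2%, 40.9% and 31.9% of all genes did. P4ha2, a subunit of the enzyme that hydroxylates collagen prolines, was covered over 0.582% (line A), 2.52% (line B) and 96.9% (NPC). The tolloid-like gene Tll2 was covered over 80.4%, 86.6% and 43.9%, and the related Tll1 over 59.6%, 17.6% and 6.4%. Colgalt2, which adds galactose to collagen, was covered over 0%, 59.2% and 0%, and the N-proteinase gene Adamts2 over 35.6%, 3.37% and 5.42%. Lox, the lysyl oxidase that starts cross-linking, had 0% covered in both fibroblast lists and 8.39% in NPC. Of 10 collagen receptor genes, 4 (line A), 5 (line B) and 3 (NPC) had a peak. The integrin gene Itga11 was covered over 2.37%, 0% and 31.0%, the leukocyte receptor gene Lair1 over 28.1%, 8.27% and 43.4%, and the platelet receptor gene Gp6 over 10.4%, 19.6% and 38.7%. P4ha2, Itga11, Lair1 and Gp6 thus had their highest value in NPC, Tll2 and Colgalt2 in line B, and Tll1 and Adamts2 in line A.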

How the data were processed

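The deposited files are 3 lists of H3K27me3 peaks that belong to no single sample. As deposited by the authors, each holds the chromosome, start and end of a peak and no header, score or other value. The submitters' processing notes name MACS2 2.1.1.20160309, Bowtie2 2.2.9, deepTools, Picard and DESeq2 and the builds mm10 and dm6, without a role for any. For no list are its libraries, control or threshold stated in the sources used here. Fibroblast lists were assigned by the line codes in their names (C2 is line A and C26 line B, per the series text). Each name joins titles that the labels give to wild-type and Ezh2 -/- libraries, which does not show what the list holds, and the NPC name gives no treatment. The series text reports a later correction of labels, all of NPC libraries. DESeq2 was not used here. The 7 RNA polymerase II, H3K4me3, H3K36me3 and input libraries, of 25 in all, were not analysed here.

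Starts were read as 0-based and are printed 1-based. Gene records and starts came from RefSeq on GRCm38.p6. A gene had a peak where at least 1 bp of its record and 5 kb on each side was covered. Regions are peaks less than 3 kb apart joined. Values were computed with Python 3.11.15, pandas 2.3.3 and numpy 2.4.6, and coverage was checked on 2000 simulated windows with 0 wrong. No test was run, since no list has a replicate. The genes and lists were chosen with earlier results of these data known. Values are printed for members with at least 10% of the window covered in any list and for Col1a1, Col1a2, Col3a1, Col2a1, Col4a1 and Col4a2, and for genes of the maturation and receptor lists with at least 25%. Lox, the least covered members and the 25-point rule were chosen after the values were seen.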

Additional observations from a re-analysis of the deposited data

How the results depend on the processing

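Over 10 settings, 42 of 50 counts of collagen genes stayed within 1.5 times the reported ones. With at least 50% of the window required, the counts fell to 7 in line A, 4 in line B, 2 in NPC, 0 in all 3 lists and 2 in the lists of both fibroblast lines without NPC. With a peak required within 2 kb of the start, or of either end where no strand is given, they were 16 in NPC and 10 in all 3 lists. With the wider 50% of peaks, 10 genes had a peak in all 3 lists. The median share of the window covered moved with the flank: at 0, 2 and 10 kb it was 2.00%, 2.19% and 3.26% (line A), 0.494%, 2.38% and 6.41% (line B), and 1.76%, 1.66% and 2.00% (NPC). With peaks less than 3 kb apart joined it was 4.32%, 4.60% and 2.32%. The cause was not tested. No paired analysis was possible because the peak lists carry no library, and for the same reason no replicate could be left out. Depth is unknown, so a window with no peak shows no peak called there, not the absence of the mark.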

Other observations

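Of 5 other cartilage genes, the aggrecan gene Acan was covered over 71.3% (line A), 7.52% (line B) and 62.7% (NPC). Matn1, a cartilage matrilin, was covered over 49.5%, 75.4% and 87.6%, and Matn3 over 0%, 2.07% and 0%. Sox9, the regulator of cartilage, and Comp had no peak in any list.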
